A study of Mus musculus with 143 samples.

Results

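The 144 genes described here are the messages that were most depleted between the germinal vesicle (GV) stage and metaphase II (MII) in control oocytes. They were chosen on measured values: CPM values (gene counts scaled to a library total of 1000000) were averaged over the 8 control GV and the 8 control MII libraries of poly(A) sequencing, and the 4304 genes with a mean of at least 50 CPM at GV were ranked by the ratio of MII to GV after adding 1 to both. The 200 lowest ratios were taken, and 56 genes whose symbols start with the prefixes of ribosomal proteins, mitochondrial ribosomal proteins, respiratory chain and ATP synthase subunits or proteasome subunits were dropped (Nduf 13, Mrp 11, Atp5 7, Rpl 7, Rps 6, and Cox, Psm and Uqcr 4 each). The files list 55573 gene IDs in all. The fall from control GV to control MII therefore defines the set and is given as a description, with no test. At the edge of the rule, H2afx, Ubb and Aig1 stood just inside with ratios of 0.0934, 0.0943 and 0.0951, and Mtif3, Ankrd54 and Hps6 just outside with 0.0957, 0.0959 and 0.0959.

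A fully grown oocyte has stopped transcription and lives on stored messages. When meiosis resumes, many of these messages lose their poly(A) tail and are degraded in waves, a process called maternal message clearance that involves the CCR4-NOT deadenylase, its adaptor BTG4 and the RNA-binding ZFP36L2. In the nucleus, RNA is trimmed and destroyed by the exosome, a complex whose catalytic subunits include DIS3 and EXOSC10.

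The study removed these enzymes from mouse oocytes, and its labels state that the mutant alleles were made with CRISPR/Cas9. Poly(A) libraries of single oocytes covered control and Dis3 conditional knockout (labelled dis3cKO) oocytes at GV (8 and 15 libraries), after 3 h of culture in M2 medium (labelled GV3h; 8 and 16) and at MII (8 and 16), the last taken as ovulated eggs from oviducts. RiboMinus libraries, made with random hexamers after removal of ribosomal RNA and so not dependent on a tail, covered adult GV control and dis3cKO oocytes and oocytes of postnatal day 20 (p20, growing oocytes) that were control, dis3cKO, exo10cKO or dcKO (loss of both enzymes), with 8 libraries each. The labels used here do not name the Cre driver, the strain or the animals behind the libraries, so p-values measure the spread between these libraries. RiboMinus titles carry 2 tags per group with 4 libraries each, and libraries of 1 tag may share an animal, in which case p-values over the 8 are too small. CUT&Tag peak lists for RNA polymerase II (Pol II, phosphorylated forms named in the titles) and H3K27me3 came from bulk oocytes, 3 lists per group.

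Dis3 was lower in each group labelled as its knockout. Its level was 9.91 to 18.8 CPM in control and 0.704 to 6.91 CPM in dis3cKO GV libraries, and the adjusted p (edgeR quasi-likelihood test, as for every adjusted p here) was 5.5e-06 at GV, 5.2e-08 at 3 h and 6.3e-12 at MII. Exosc10 stood at 0.352 to 10.3 CPM in p20 exo10cKO and 3.46 to 15.6 CPM in p20 dcKO libraries against 102 to 125 CPM in p20 controls. Gene counts per library ran from 4843964 to 15412200 in poly(A) and from 8492102 to 35429028 in RiboMinus data. All 15 oocyte markers were at 1 CPM or more on average in each poly(A) group. Of 24 granulosa and cumulus cell markers, 17 reached 1 CPM on average in control GV libraries, where their summed level was 105 to 260 CPM, and 8 did so in control 3 h libraries at 82.1 to 131 CPM. The sum was 93.3 to 384 CPM in dis3cKO GV libraries, highest in libraries 1 and 4 (384 and 322 CPM), and 67.5 to 128 CPM in dis3cKO 3 h libraries. At MII it was 114 to 292 CPM in control eggs, highest in egg 3, and 59.1 to 116 CPM in dis3cKO eggs; the part of these markers in comparisons of the groups was not tested.

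Several members are known from the egg itself. Of 13 eligible genes on a list of oocyte markers, 2 were members (15.4%), Ooep and Zp3. Of the 13 markers on that list that are not members, 7 had a lower mean CPM in control MII than in control GV libraries, such as Zp2, another zona protein (461 against 2982 CPM), and 6 a higher one, such as the growth factor Gdf9 (4955 against 3955 CPM). The genes named next were picked for their roles with their values known. Ooep and Khdc3 encode parts of the subcortical maternal complex, Zp3 encodes a protein of the zona pellucida that binds sperm, Gja4 encodes the connexin of the gap junctions to granulosa cells, and Fgf8 encodes a growth factor secreted to the cumulus. Ooep read 1825 to 2959.7 CPM (median 2136) in control GV and 154 to 275 CPM (median 178) in control MII libraries. Khdc3 read 1629.5 to 3207 CPM (median 2033) at GV and 14.3 to 190.0 CPM (median 28.6) at MII. Zp3 went from 936 to 1661 CPM (median 1304) to 58.2 to 121 CPM (median 82.9). Gja4 went from 1023 to 1432 CPM (median 1337) to 56.9 to 110.1 CPM (median 88.8). No GV library overlapped an MII library for these 4 genes, which the rule makes likely. They are also abundant: their GV medians lie above the median of 108 CPM over all 144 members, which is itself close to the 114 CPM of the 4104 eligible genes ranked below the 200.

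Other groups were counted from lists by symbol. Mitochondrial import and metabolism genes, listed by symbol prefix, supplied 10 of their 38 eligible genes (26.3%), against 3.35% of all eligible genes that are members. Acot11, Chchd2, Tpi1 and Mdh2 were the most abundant of them. Redox and glutathione genes supplied 5 of 24 (20.8%): Sod1, Glrx5, Mt1, Gstt2 and Gsta4. The respiratory subunits dropped by prefix are of the same kind, so these shares depend on where the prefixes were drawn. Translation factors supplied 3 of 43 (Eif6, Eif3g and Eif3h), cyclins and cyclin-dependent kinases 2 of 47 (Cdk1 and Ccnd2), ubiquitin genes 2 of 143 (Ubb and Fbxw13), zinc finger genes 2 of 84 and signalling kinases and phosphatases 1 of 86. None of the 33 eligible genes of the clearance machinery itself was a member. Cdk1, the kinase that drives entry into M phase, read 112 to 178 CPM (median 149) at GV and 4.69 to 16.8 CPM (median 10.2) at MII in controls. The shares describe the list and were not tested.

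Member genes are short. The median genomic span in the RefSeq annotation was 7985 bases (quartiles 3996 and 17300.2) for the 138 members with a RefSeq match, against 32172 bases (quartiles 14708.5 and 71892) for the eligible genes below the 200. Of the 138, 133 are protein coding, 4 are long noncoding RNAs and 1 is a transcribed pseudogene. By position 48 of the 138 overlap a second annotated gene, and their counts are uncertain to the extent that the counting shared reads. Gm20509 has the ninth lowest ratio among the members and no match in that annotation. It read 960.4 to 1798 CPM (median 1174) in control GV poly(A) libraries but 0 to 0.574 CPM (median 0.279) in adult control RiboMinus libraries. Its ratio of 0.0283 lay close to the 0.0272 of Khdc3, and both had a log2 fold change of -2.41 from dis3cKO GV to dis3cKO MII. Khdc3 had a mean of 116 CPM in adult control RiboMinus libraries. Whether the 2 IDs count the same poly(A) reads was not tested.

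In controls the summed level of the 144 messages was 28901 to 38260 CPM at GV (mean 34072 ± 3328, SD, n = 8), 26673 to 29977 CPM at 3 h (28514 ± 1303, n = 8) and 1551 to 2572 CPM at MII (1859 ± 347, n = 8). A CPM value is relative to the other messages of the same oocyte, and the whole pool shrank: the ratio of gene counts to counts of the added ERCC spike-in RNAs at MII was 33.5% of that at GV. Scaled to 1000 ERCC counts, the sum went from 4680 ± 732 at GV to 4559 ± 645 at 3 h, which is 97.4%, and to 85.5 ± 17.6 at MII, which is 1.83%. The 3 h libraries overlapped the GV libraries on the ERCC scale, and every MII library lay far below both. Because MII eggs were sequenced only from poly(A) RNA, loss of a message and loss of its tail cannot be told apart at this stage.

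**Figure D1:**
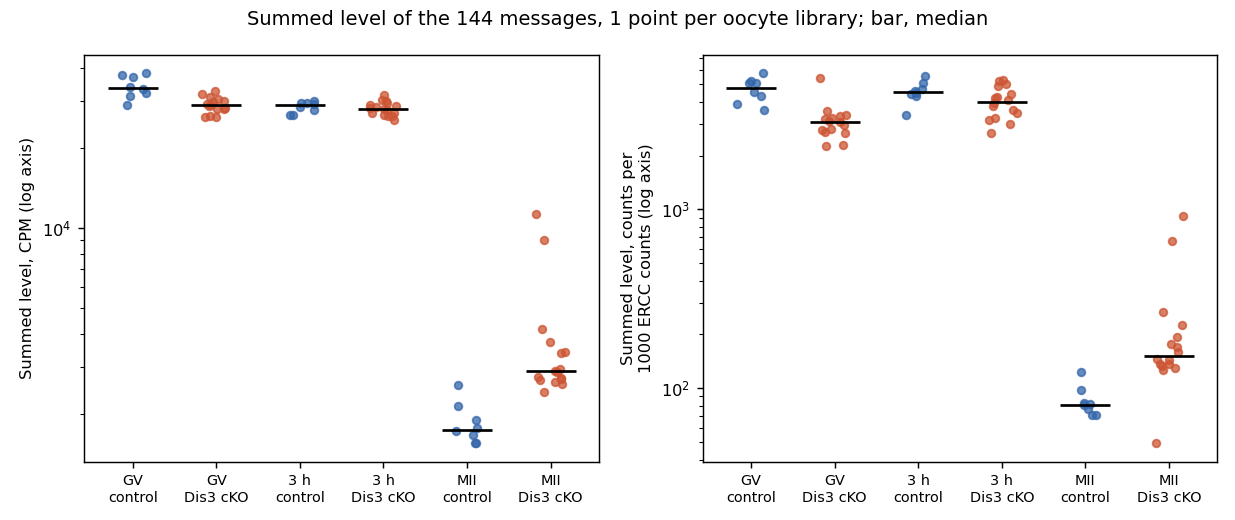
Summed level of the 144 messages in each poly(A) library, in CPM (left) and in counts per 1000 ERCC counts (right), on log axes; each point is 1 oocyte and each bar the group median. Control MII eggs lie at 1551 to 2572 CPM, and 2 dis3cKO eggs at 9046 and 11285 CPM stand above the other 14.

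After 3 h of culture the control oocytes still held most of these messages. Per ERCC count, the median member was at 99.6% of its GV level (quartiles 88.9% and 114%), 106 of 144 lay between 80% and 125%, 21 lay above and 13 lay between 50% and 80%. In CPM the median member was at 85.7%, with 111 of 144 fitted log2 fold changes negative and a median of -0.22, beside -0.05 for all 17389 genes tested. With ERCC scaling the 2 medians were -0.01 and 0.17. The members thus sat under all genes on both scales. In the fit of all 6 groups, 2 members were called lower and 0 higher at 3 h, where 1.56% of all genes tested were lower and 1.14% higher. A fit of the 16 control libraries alone, which does not carry the spread of the MII eggs, called 41 members lower (28.5%) and 3 higher, beside 7.45% and 7.66% of all genes. Without dis3cKO MII egg 15 the count in the 6-group fit was 4, and without control GV libraries 2 and 3 it was 1. These control GV libraries also chose the members, so the counts are a description.

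**Figure D2:**
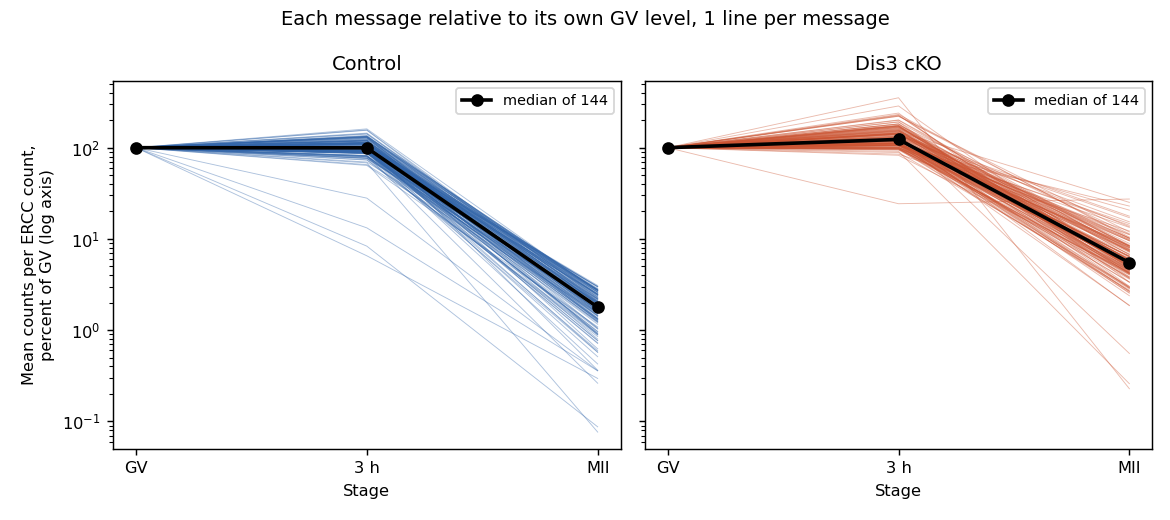
Mean counts per ERCC count of each message at GV, 3 h and MII as a percentage of its own GV level (log axis), for control (left) and dis3cKO (right) oocytes; each thin line is 1 message and the black line is the median. The medians stay at 99.6% and 123% at 3 h and reach 1.79% and 5.49% at MII.

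4 members were already under 50% of their GV level per ERCC count at 3 h in controls: Ccnd2, Arid5b, Gm26917 and Mlycd. They are among the 10 members with the lowest ratios, and each varied widely between libraries of at least 1 group, as given below. Arid5b, a DNA-binding regulator, read 200.4 to 446 CPM (median 234) in control GV libraries, 0.847 to 2.81 CPM in control 3 h libraries 1 to 4, and 11.8 to 188 CPM in control 3 h libraries 5 to 8. In dis3cKO MII eggs, Arid5b read 87.2 to 243 CPM in eggs 1 to 11 and 0.475 to 1.6 CPM in eggs 12 to 16. Mlycd, malonyl-CoA decarboxylase of fatty acid metabolism, read 17.2 to 108 CPM (median 50.4) in control GV and 3.15 to 11.1 CPM (median 5.82) in control 3 h libraries, a log2 fold change of -3.17 (SE 0.65). In dis3cKO 3 h libraries, Mlycd read 4.77 to 9.98 CPM in libraries 1 to 8 and 30.6 to 72.1 CPM in libraries 9 to 16. Gm26917, an annotated noncoding gene that was not in the RiboMinus tables used here, read 451 to 524 CPM in control GV libraries 2, 3 and 6 and at most 5.78 CPM in the other 5. For Arid5b and Mlycd the level thus followed runs of title numbers within a stage; what the numbers mark is not given in the labels, and their part in the result was not tested.

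Ccnd2, cyclin D2, has the second lowest ratio and had a log2 fold change of -3.81 (SE 0.70) from GV to 3 h in controls; it and Mlycd are the 2 messages counted as lower above. Its control GV libraries ranged from 8.34 CPM in library 1 to 427 CPM in library 2, with library 3 close to it, and its control 3 h libraries from 2.21 to 21.9 CPM (median 9.63), so the groups overlapped. The summed granulosa and cumulus markers were also highest in control GV libraries 2 and 3, at 260 and 211 CPM. They were at 105 CPM in library 1 and at 126 to 190 CPM in the others. Much of this sum came from Cyp19a1 and Nr5a2, which stayed present at 3 h. Their means were 36.8 and 45.0 CPM in control GV and 41.2 and 35.9 CPM in control 3 h libraries. Inha, a granulosa cell hormone subunit, was at 62.4 and 57.3 CPM in libraries 2 and 3 and at 0 in library 1. Without libraries 2 and 3 the log2 fold change of Ccnd2 was -2.51 and no longer called, and the part of these markers in its ratio was not tested.

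Mt1, a metallothionein that binds zinc and copper, has the lowest ratio of all (0.00863), and its levels were either near 0 or high. In control GV libraries Mt1 read 0.102 CPM in library 1 and 164 to 204 CPM in the other 7. In control 3 h libraries it read 0.242 to 1.4 CPM in libraries 1 to 4 and 137 to 181 CPM in libraries 5 to 8. All 8 control MII eggs were at 0 to 1.44 CPM. Control libraries near 0 were therefore present at each stage, and the ratio of Mt1 mixes stage with whatever separates such libraries. Over both assays, Mt1 was under 2 CPM in 25 of 40 control libraries and in 0 of 79 knockout libraries, of which the lowest was a dis3cKO MII egg at 9.64 CPM. Among adult RiboMinus controls, the 4 libraries of 1 title tag were at 0.255 to 1.18 CPM and the 4 of the other at 63.2 to 83.2 CPM.

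Dis3 knockout oocytes, which took no part in the choice of members, gave an independent view of the timing. Their summed level was 26064 to 32740 CPM at GV (29065 ± 1998, n = 15) and 25422 to 31618 CPM at 3 h (28175 ± 1680, n = 16), a mean of 96.9% at 3 h. Per ERCC count the mean was 129%, and the same ratio for all gene counts was 132%. The groups overlapped on both scales. The fit called 17 members lower and 8 higher at 3 h than at GV (11.8% and 5.56% of 144), beside 9.88% lower and 7.42% higher of all genes tested and 20.7% and 9.09% of the other eligible genes. The median log2 fold change was -0.16, beside 0.00 for all and -0.08 for the other eligible genes. ERCC scaling moved the median of all genes to 0.47 and that of members to 0.30, and then called 46 members higher and 1 lower. The members' median stood under that of all genes on both scales. Without MII egg 15 the fit called 27 lower and 13 higher. With only the 2 groups in the fit, 50 were lower and 27 higher, beside 15.1% and 14.5% of all genes, and with libraries summed over 4 title numbers 0 were lower and 4 higher.

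Zp3 and Ooep moved apart in these 3 h oocytes. Zp3 read 536 to 1513 CPM (median 904) in dis3cKO GV and 1164 to 2108 CPM (median 1529.8) in dis3cKO 3 h libraries, and rose (log2 fold change 0.71, SE 0.20, adjusted p = 0.0092). Ooep read 1577 to 2819 CPM (median 2208) and 1027 to 1745 CPM (median 1324), and fell (log2 fold change -0.72, SE 0.21, adjusted p = 0.0098). With ERCC scaling, Zp3 had 1.14 (SE 0.29, adjusted p = 0.0023) and Ooep -0.24 (SE 0.27, adjusted p = 0.49), so only the rise of Zp3 was called on both scales. Both pairs of groups overlapped. In controls the same step gave log2 fold changes of 0.43 (SE 0.28) for Zp3 and -0.35 (SE 0.29) for Ooep, of the same signs.

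The fall in poly(A) counts at MII was seen in Dis3 knockout eggs as well. Against dis3cKO GV oocytes, 143 of 144 members were lower at MII and 0 higher, with a median log2 fold change of -3.00, beside 38.5% lower and 24.8% higher of all genes tested and a median of -0.26. The exception was Arid5b, whose 2 runs of eggs are given above (log2 fold change -0.83, SE 0.67, adjusted p = 0.28; -1.87 with ERCC scaling, which was called). Beside it, the least depleted were H2afx, the histone variant of the DNA damage response (log2 fold change -0.81, SE 0.18, adjusted p = 4.3e-05), and Tomm7, a subunit of the mitochondrial outer membrane translocase (log2 fold change -0.94, SE 0.16, adjusted p = 2.5e-07). Tomm7 read 34.5 to 88.7 CPM (median 62.3) in dis3cKO GV oocytes and 14.1 to 38.4 CPM (median 26.7) in dis3cKO eggs, where the highest eggs reached the lower end of the GV range. H2afx read 35.9 to 85.7 CPM (median 51) and 8.97 to 48 CPM (median 22.2), again with overlap. At the other end, Ccnd2 (log2 fold change -7.26, SE 0.68, adjusted p = 2.2e-15) and Gm26917 (log2 fold change -6.96, SE 1.12, adjusted p = 1.2e-07) fell most among the 10 members with the lowest ratios. Ccnd2 read 0 to 0.811 CPM (median 0.0486) in dis3cKO eggs, so the size of its fitted value depends on the prior count. Ppie, a spliceosomal cyclophilin (log2 fold change -4.10, SE 0.28, adjusted p = 5.4e-22), Hint1, a nucleotide hydrolase (log2 fold change -3.74, SE 0.34, adjusted p = 8.8e-16), Mlycd (log2 fold change -3.23, SE 0.49, adjusted p = 2.2e-08) and Gstt2, a glutathione transferase (log2 fold change -3.15, SE 0.19, adjusted p = 7.1e-25), followed.

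Khdc3, Ooep, Zp3 and Gja4 fell in the knockout too. Of the 13 oocyte markers that are not members, 6 had a lower and 7 a higher mean CPM in dis3cKO eggs than in dis3cKO GV oocytes. The log2 fold change at MII against GV was -2.41 (SE 0.33, adjusted p = 1.2e-09) for Khdc3, -2.10 (SE 0.21, adjusted p = 5.6e-14) for Ooep, -2.00 (SE 0.21, adjusted p = 9.6e-14) for Zp3 and -2.62 (SE 0.16, adjusted p = 5.4e-24) for Gja4. Zp3 read 22.3 to 687 CPM (median 129) and Khdc3 15.3 to 728 CPM (median 81.6) in dis3cKO eggs. Dppa5a, a KH-domain protein of pluripotent cells and relative of Khdc3 and Ooep, gave -2.47 (SE 0.27, adjusted p = 7.3e-13). Fgf8 gave -4.12 (SE 0.24, adjusted p = 1e-25) and Cdk1 -2.71 (SE 0.16, adjusted p = 1.6e-24). Mt1 fell by 1.83 (SE 0.43, adjusted p = 0.00017) and remained at 9.64 to 49.9 CPM (median 29.3) in dis3cKO eggs.

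For nearly all of these messages a larger share was left in knockout eggs than in control eggs. The summed level was 2423 to 11285 CPM in dis3cKO eggs (median 2887, mean 3895 ± 2525, n = 16), where control eggs reached at most 2572 CPM. Per ERCC count, knockout eggs kept 7.58% of the mean of dis3cKO GV oocytes, against 1.83% in controls. The share kept of the whole message pool was also larger: the ratio of gene to ERCC counts at MII was 51.4% of GV in the knockout and 33.5% in controls. The ratio itself was 55.5 ± 15.3 (SD) in dis3cKO and 46.0 ± 3.43 in control eggs, with overlap. At GV it was 108 ± 30.8 in dis3cKO and 137 ± 16.2 in control oocytes, so the lower GV value enters the knockout share. Of the single messages, the median kept 5.49% in knockout eggs (0.228% to 27.4%) and 1.79% in controls (0.0763% to 3.08%). The share kept was higher in the knockout for 142 of 144, the exceptions being Gm26917 and Gm42553. Most other genes went the same way. In the fit with ERCC scaling, the difference of the MII and GV effects of the knockout was positive for 143 of 144 members. It was also positive for 3980 of 4104 other eligible genes and 14799 of 17389 genes tested. In the knockout 85 messages kept over 5% and 21 over 10%, against 0 in controls. Arid5b, Pcbd2, Tomm7 and H2afx kept over 20%. These shares come from group means that include eggs 7 and 11, described next, and the counts without them were not computed. The other eligible genes kept a median of 47.9% in the knockout and 31.4% in controls. The control values were minimised by the rule, so the distance between genotypes is a description.

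Eggs 7 and 11 of the knockout stood apart, with sums of 11285 and 9046 CPM. Of the 144 messages, 97 in egg 7 and 72 in egg 11 were above all 14 other knockout eggs (67.4% and 50%), against 21.8% and 13.9% of the other eligible genes. Without both eggs the sum was 2423 to 4187 CPM (2999 ± 501, n = 14), and the share kept per ERCC count was 5.04%. Egg 15 had the lowest ratio of gene to ERCC counts of the knockout eggs. When knockout oocytes alone were ranked, 4405 genes reached 50 CPM at GV, 128 of the 144 messages among them. Of these 128, 97 (75.8%) were among the 200 lowest ratios of the 4405, a list that keeps the dropped prefixes. With the dropped prefixes kept in both, 135 of the 200 lowest genes (67.5%) were the same in both genotypes.

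Set against control eggs, 98 messages were higher and 1 lower in dis3cKO eggs, beside 27.3% higher and 14.8% lower of all genes tested. The control eggs chose the members for their low values, so the count and the values that follow are a description with no test. With only the MII libraries in the fit, 55 of 142 were higher and 0 lower, beside 17.5% and 13.2% of all genes. Gstt2 read 4.19 to 16.5 CPM (median 7.66) in knockout and 0 to 1.84 CPM (median 0.789) in control eggs, a log2 fold change of 3.26 (SE 0.29). Tomm7 read 14.1 to 38.4 CPM (median 26.7) against 0.359 to 6.01 CPM (median 3.2), a log2 fold change of 2.83 (SE 0.22). Mt1 had 5.99 (SE 0.83) and Arid5b 5.46 (SE 1.14), with the levels given above, which for Arid5b fall into 2 runs of eggs. The 1 message on the other side in the 6-group fit was Gm42553, a predicted gene model, at 0 to 1.66 CPM (median 0.283) against 0.206 to 1.39 CPM (median 0.978) (log2 fold change -1.43, SE 0.33), with overlapping ranges near the lower end of detection.

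**Figure D3:**
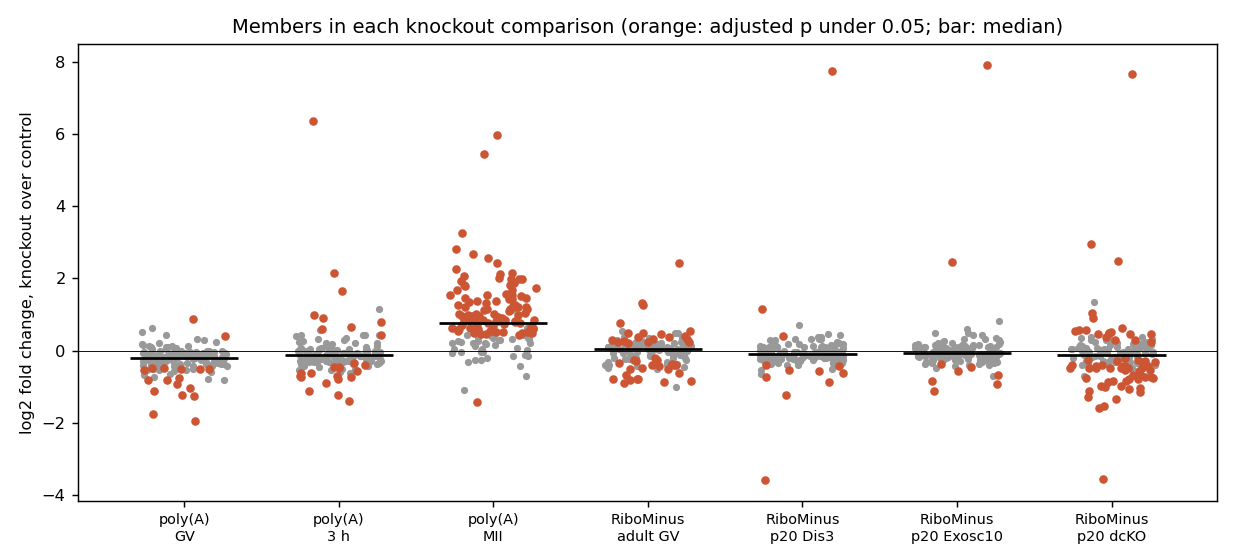
Log2 fold change of knockout over control for each message in the 7 knockout comparisons; each point is 1 message, orange marks an adjusted p under 0.05 and the bar is the median. Control MII eggs and control GV oocytes chose the members, so the MII column (median 0.78) and the poly(A) GV column (median -0.21) are descriptions; the poly(A) 3 h column, which the rule did not use, has a median of -0.13.

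At 3 h, where neither group took part in the rule, 9 messages were higher and 17 lower in dis3cKO than in control oocytes (6.25% and 11.8%), beside 22.9% higher and 15.7% lower of all genes tested and 8.07% and 34.9% of the other eligible genes. The median was -0.13, beside 0.07 for all genes and -0.19 for the other eligible genes. With only the 3 h libraries in the fit, 18 were higher and 52 lower, beside 29.7% and 24.9% of all genes.

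The 4 most negative messages at 3 h have separate roles. Hspa8, the constitutive HSP70 chaperone, read 24.9 to 82.7 CPM (median 62.3) in dis3cKO and 122 to 167 CPM (median 129.5) in control oocytes, groups that did not overlap (log2 fold change -1.40, SE 0.32, adjusted p = 0.00026). Hint1 read 70.2 to 115 CPM (median 89.5) against 147 to 302 CPM (median 178), again without overlap (log2 fold change -1.24, SE 0.36, adjusted p = 0.0039). Mecr, a reductase of mitochondrial fatty acid synthesis, read 34.3 to 59.6 CPM (median 46.8) against 82.5 to 98.5 CPM (median 91.2) (log2 fold change -1.13, SE 0.18, adjusted p = 3.4e-07), with no shared range. Arl2, a small GTPase that acts on tubulin folding, fell by 0.89 (SE 0.23, adjusted p = 0.0015). Eif3g and Eif3h, subunits of initiation factor 3, were lower too, with log2 fold changes of -0.63 and -0.73.

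The 4 most positive at 3 h were Gm26917 (log2 fold change 6.37, SE 1.43, adjusted p = 0.00024), Mlycd (log2 fold change 2.14, SE 0.58, adjusted p = 0.0021), Gm45040 (log2 fold change 1.64, SE 0.33, adjusted p = 4.7e-05) and Dppa5a (log2 fold change 0.98, SE 0.32, adjusted p = 0.012). Gm26917 read 1.59 to 1694 CPM (median 971) in dis3cKO and 0.234 to 52.6 CPM (median 1.89) in control 3 h libraries, and the groups overlapped. Mlycd rested on title numbers: with libraries 1 to 8 alone its log2 fold change was 0.14 and not called. Dppa5a read 391 to 964 CPM (median 512) against 103 to 398 CPM (median 237); its adjusted p was 0.052 with ERCC scaling, where its log2 fold change was 0.94. At 3 h, Zp3 had -0.31 (SE 0.24, adjusted p = 0.31) and Ooep -0.51 (SE 0.24, adjusted p = 0.089), neither called.

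Before maturation, in GV oocytes, 16 messages were lower and 2 higher in the knockout, beside 8.33% lower and 13.6% higher of all genes tested and 20% and 5.82% of the other eligible genes. The control GV libraries chose the members for high values, so the count and the values here are a description with no test; without MII egg 15 in the fit the count was 29. Khdc3 read 497 to 2529 CPM (median 883) in dis3cKO against 1629.5 to 3207 CPM (median 2033) in control GV oocytes (log2 fold change -1.25, SE 0.37), with overlap. Mecr had a log2 fold change of -1.12 (SE 0.18) and Arl2 one of -0.82 (SE 0.24). The 2 messages on the other side were Gm45040, with 0.88 (SE 0.32), and Dynll1, a dynein light chain, with 0.40 (SE 0.15). With ERCC scaling, which moved the median of all genes to -0.23, 36 messages were lower and 0 higher. A fit of the GV libraries alone called 51 messages lower (35.4%) and 0 higher, beside 12.4% and 14.8% of all genes.

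The effect of the knockout at 3 h minus that at GV contains the control GV libraries that chose the members, so it is likewise a description. The fit called 3 messages higher at 3 h and 0 lower, beside 1.37% higher and 0.667% lower of all genes tested. They were Ccnd2, with a difference of 3.12 (SE 0.80), Mlycd, with 3.91 (SE 0.77), and Gm26917, with 5.75 (SE 1.59), the genes whose libraries split within groups. Without control GV libraries 2 and 3, and also with title numbers 1 to 8 alone, 1 message was called. With libraries summed over 4 title numbers edgeR called 0, with 8 at an unadjusted p under 0.05.

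RiboMinus libraries measured the same messages without relying on a tail. In adult GV oocytes the summed level was 9128 to 10481 CPM in controls (9872 ± 475, n = 8) and 9137 to 10619 CPM in dis3cKO (9704 ± 555, n = 8), and the groups overlapped. Of 142 messages tested, 22 were lower and 19 higher in the knockout (15.5% and 13.4%), beside 12.4% lower and 15.7% higher of all genes tested and 24.1% and 11.9% of the other eligible genes. ERCC scaling moved the median of all genes from 0.03 to -0.52, and then 76 messages were lower and 1 higher. With libraries summed to 1 value per title tag, 2 per group, edgeR called 0, with 21 at an unadjusted p under 0.05.

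Of the messages lower in adult RiboMinus data, Hint1 read 7.11 to 11.1 CPM (median 9.78) in dis3cKO and 13.6 to 19.2 CPM (median 16.2) in control oocytes, without overlap (log2 fold change -0.85, SE 0.12, adjusted p = 5.1e-05). Zp3 read 424 to 506 CPM (median 492) against 543 to 929 CPM (median 785), also without overlap (log2 fold change -0.78, SE 0.09, adjusted p = 4.7e-06). Khdc3 (-0.80, SE 0.10, adjusted p = 2.1e-05) and Ooep (-0.39, SE 0.08, adjusted p = 0.0015) were lower as well. The others among the 4 most negative were Gm42553 (-0.90, SE 0.15, adjusted p = 0.00021), the mitochondrial Chchd2 (-0.86, SE 0.14, adjusted p = 0.00013) and Hspa8 (-0.81, SE 0.27, adjusted p = 0.032). Hspa8 read 29.9 to 87 CPM in the knockout libraries of 1 title tag and 106 to 153 CPM in those of the other, against 146 to 185 CPM (median 159.8) in controls. The symbol Sssca1 belongs to a pair of gene IDs that both are members and lie at one locus, so reads could be split between them. The most positive were Sssca1 (ENSMUSG00000118125; log2 fold change 2.42, SE 0.31, adjusted p = 1.7e-05), Mlycd (1.32, SE 0.38, adjusted p = 0.015), Gm45040 (1.26, SE 0.33, adjusted p = 0.0075) and Ccdc28b (0.76, SE 0.16, adjusted p = 0.0014). Mlycd read 1.94 to 4.84 CPM in 1 knockout tag and 9.12 to 15.9 CPM in the other.

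The 3 h poly(A) and the adult RiboMinus comparisons share no libraries. Of the 142 messages tested in both, 25 were called at 3 h and 41 in RiboMinus data. 9 were called in both, 36% of the 25 and 22% of the 41, and all 9 had the same direction. Over all 14752 genes tested in both, the shared calls were 43.5% of those at 3 h and 57.6% of those in RiboMinus data, 98% of them in the same direction, so the members' overlap does not stand above that of genes at large. Hspa8, Hint1, Mecr, Arl2, Gm42553 and Jpt1 were lower in both, and Dynll1, Mlycd and Gm45040 higher in both. Jpt1 had -0.49 at 3 h and -0.20 in RiboMinus data, and Dynll1 0.43 and 0.32.

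**Figure D4:**
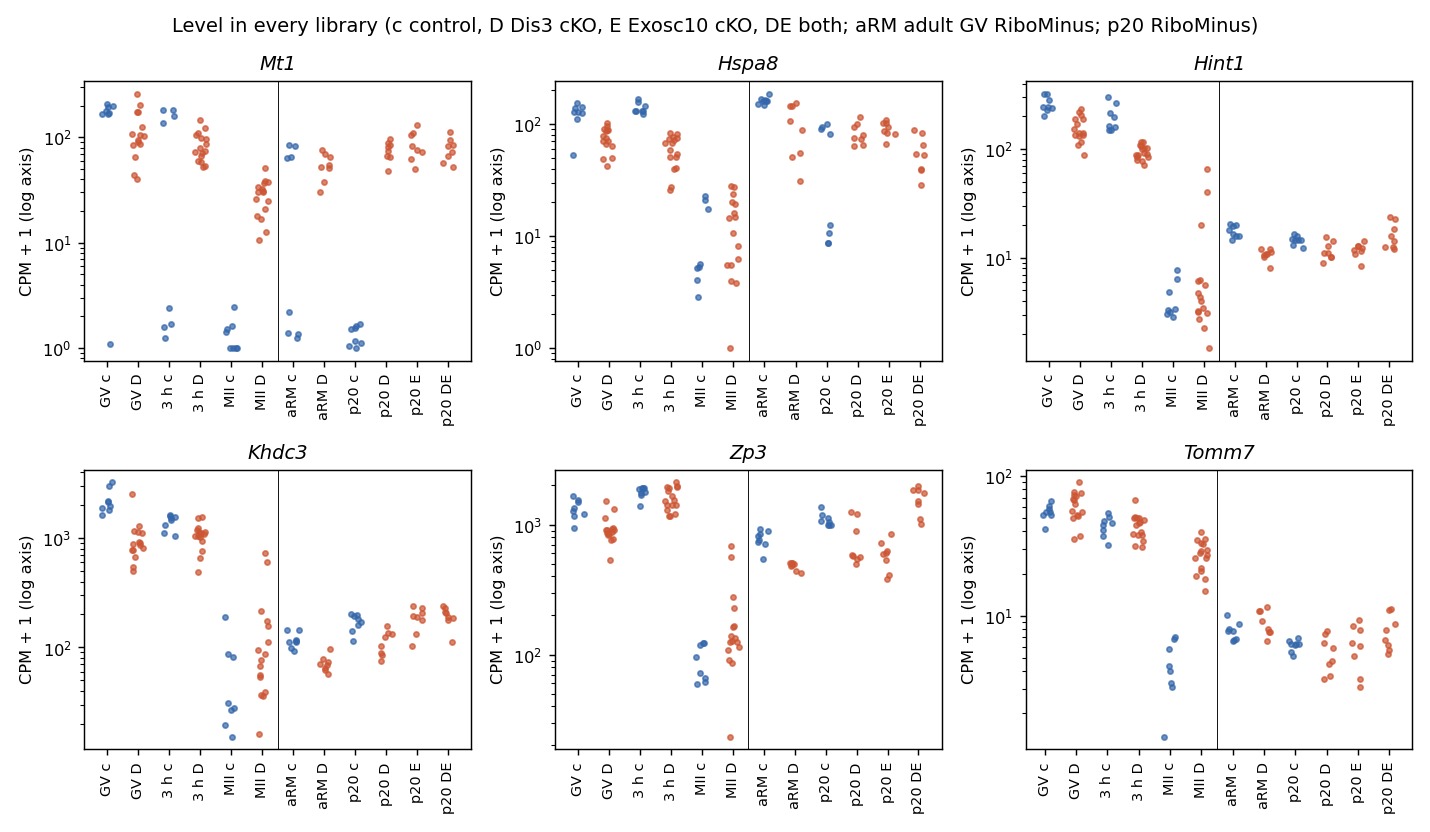
Level of 6 messages in every library, in CPM + 1 on log axes, with control oocytes in blue and knockout oocytes in orange; the vertical line separates poly(A) from RiboMinus libraries. Mt1 is near 0 in 25 of 40 control libraries and in 0 of 79 knockout libraries.

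In growing oocytes of p20, few messages were called after loss of a single enzyme. Loss of Dis3 gave 9 lower and 3 higher of 142 (6.34% and 2.11%), beside 3.76% lower and 3.61% higher of all genes tested and 4.56% and 3.1% of the other eligible genes. Loss of Exosc10 gave 7 lower and 2 higher (4.93% and 1.41%), beside 3.5% lower and 3.95% higher of all and 5.47% and 2.32% of the other eligible genes. With libraries summed per title tag the counts were 3 for Dis3 and 2 for Exosc10, and ERCC scaling gave 4 for Exosc10. Mt1 and Sssca1 (ENSMUSG00000118125) were higher in both. Mt1 read 0 to 0.697 CPM (median 0.336) in p20 controls, 46.8 to 94.5 CPM (median 76.4) in dis3cKO and 48.8 to 131 CPM (median 79) in exo10cKO oocytes, far apart from the controls. Its log2 fold changes were 7.76 (SE 0.33, adjusted p = 2.4e-19) and 7.93 (SE 0.33, adjusted p = 2.5e-19). Since all control libraries were near 0, these depend on the prior count of the fit. Adult control libraries also included some near 0, as given above, and the part of whatever separates such control libraries was not tested. Mlycd read 0.411 to 4.96 CPM (median 2.56) in dis3cKO against 25.6 to 37.1 CPM (median 30.1) in p20 control oocytes, lower without overlap (log2 fold change -3.59, SE 0.21, adjusted p = 2.5e-15), and 21.9 to 35.8 CPM (median 29.4) in exo10cKO oocytes. Zp3 was lower after loss of Exosc10 (log2 fold change -0.94, SE 0.18, adjusted p = 0.00039) and Khdc3 after loss of Dis3 (log2 fold change -0.62, SE 0.16, adjusted p = 0.0094).

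Loss of both enzymes changed 65 of 142 messages, 46 lower and 19 higher (32.4% and 13.4%), beside 27.1% lower and 26.6% higher of all genes tested and 49.3% and 13% of the other eligible genes. With sums per title tag 35 were lower and 8 higher, and with ERCC scaling 36 were lower and 5 higher (25.4% and 3.52%), beside 20.4% and 17.8% of all genes. Ccnd2 read 0.0839 to 2.51 CPM (median 1.52) in dcKO against 4.14 to 40.8 CPM (median 8.78) in control oocytes, without overlap (log2 fold change -3.57, SE 0.66, adjusted p = 2.5e-05). The summed granulosa markers overlapped in these 2 groups, at 137 to 231 CPM in dcKO and 150 to 202 CPM in control libraries. Fam229b (-1.58, SE 0.25, adjusted p = 2e-06) and Upp1, uridine phosphorylase (-1.54, SE 0.23, adjusted p = 7.3e-07), came next. Upp1 read 9.72 to 45.6 CPM (median 29.1) against 58.2 to 84 CPM (median 75.7). The most positive were Mt1 (7.67, SE 0.33, adjusted p = 6.7e-19), Sssca1 (2.96, SE 0.38, adjusted p = 5.8e-08) and Rnaset2a, a ribonuclease of the T2 family with near-identical copies in mouse (2.49, SE 0.63, adjusted p = 0.0011). Fgf8 fell by 1.16 and Ooep by 0.27.

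Between ages in controls, 26 of 143 messages were higher and 8 lower in adult GV than in p20 oocytes (18.2% and 5.59%), beside 8.69% higher and 10.4% lower of all genes tested and 18.8% and 8.76% of the other eligible genes. With libraries summed per title tag, 5 messages were called instead of 34. With only the 2 groups in the fit, 52 of 142 were higher and 12 lower, beside 15.8% and 17.7% of all genes. Mt1, Alad, an enzyme of haem synthesis (2.42, SE 0.35, adjusted p = 2e-06), and Hspa8 (1.74, SE 0.38, adjusted p = 0.00097) were the highest in adults. Mlycd (-3.39, SE 0.30, adjusted p = 3.3e-12) was the lowest. Khdc3 (-0.51, SE 0.14, adjusted p = 0.0093) and Zp3 (-0.45, SE 0.15, adjusted p = 0.032) were lower and Ooep (0.32, SE 0.08, adjusted p = 0.0031) and Gja4 (0.28, SE 0.10, adjusted p = 0.038) higher. ERCC scaling moved the median of all genes to -1.69 and that of the messages to -1.48. It called 137 messages lower and 1 higher, beside 85.7% and 0.417% of all genes. The directions given here are therefore relative to the library total. For 12 messages the log2 fold change of dis3cKO over control was not the same at both ages, 8 being higher and 4 lower in adults, beside 5.34% higher and 3.98% lower of all genes tested; sums per title tag gave 1 and ERCC scaling 4. Mlycd had the most positive difference (4.91, SE 0.42, adjusted p = 2.5e-12) and Mt1 the most negative (-7.30, SE 1.00, adjusted p = 7e-07). Mt1 was near 0 in 4 of 8 adult and 8 of 8 p20 control libraries, as described above, so its difference contains that split of control libraries and its part was not tested.

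The genes of the clearance machinery, none of which is among the 144, were listed separately: CCR4-NOT subunits, decapping and deadenylation factors, BTG and TOB adaptors, and RNA-binding regulators. Of 47 tested at 3 h, 19 were lower and 6 higher in dis3cKO than in control oocytes (40.4% and 12.8%), beside 15.7% and 22.9% of all genes tested and 34.9% and 8.07% of the other eligible genes; 33 of the machinery genes are themselves eligible. At MII 15 were lower and 2 higher (31.9% and 4.26%), beside 14.8% and 27.3% of all and 29.1% and 18.4% of the other eligible genes. In adult RiboMinus data 12 of 46 were lower and 3 higher (26.1% and 6.52%), beside 12.4% and 15.7% of all and 24.1% and 11.9% of the other eligible genes. Between GV and MII in dis3cKO, 18 rose and 13 fell (38.3% and 27.7%), beside 24.8% and 38.5% of all and 47.6% and 33.5% of the other eligible genes. In controls 19 were higher and 12 lower (40.4% and 25.5%), beside 44.8% and 32.9% of the other eligible genes and 22.7% and 35.8% of all genes tested. Btg4, the adaptor that brings CCR4-NOT to maternal messages, had log2 fold changes from GV to MII of 1.62 in dis3cKO and 1.69 in control oocytes. Cnot7, a catalytic deadenylase, was lower at 3 h by a log2 fold change of -0.81. The other catalytic deadenylases of CCR4-NOT had smaller values. Cnot6l (-0.32) was called, and Cnot8 (-0.23) and Cnot6 (0.21) were not. Among the 6 called higher were Tob1 (1.00) and Ddx6 (0.98). The part of these genes in the share of messages kept at MII was not tested.

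Pol II and H3K27me3 peak lists show whether the start of a member gene lay within 1000 bases of a called peak. A start could be matched for 101 of 144 member genes (70.1%), under the 80% needed to speak for the set, so the shares describe those 101 only. A Pol II peak lay at 7.92%, 7.92% and 10.9% of them in the 3 adult control lists, at 17.8%, 12.9% and 29.7% in the adult dis3cKO lists and at 23.8%, 23.8% and 20.8% in the p20 control lists. The other eligible genes had 4.93% to 8.97%, 7.27% to 22.9% and 14.7% to 17.9%. The number of peaks ran from 19697 to 122606 per list, and the share of all gene starts with a Pol II peak, 2.88% to 14.6%, moved with it. H3K27me3, a repressive histone mark, lay at 0.99% to 12.9% of the 101 starts, at 2.77% to 12% of those of the other eligible genes and at 18.4% to 33.7% of all gene starts.

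**Figure D5:**
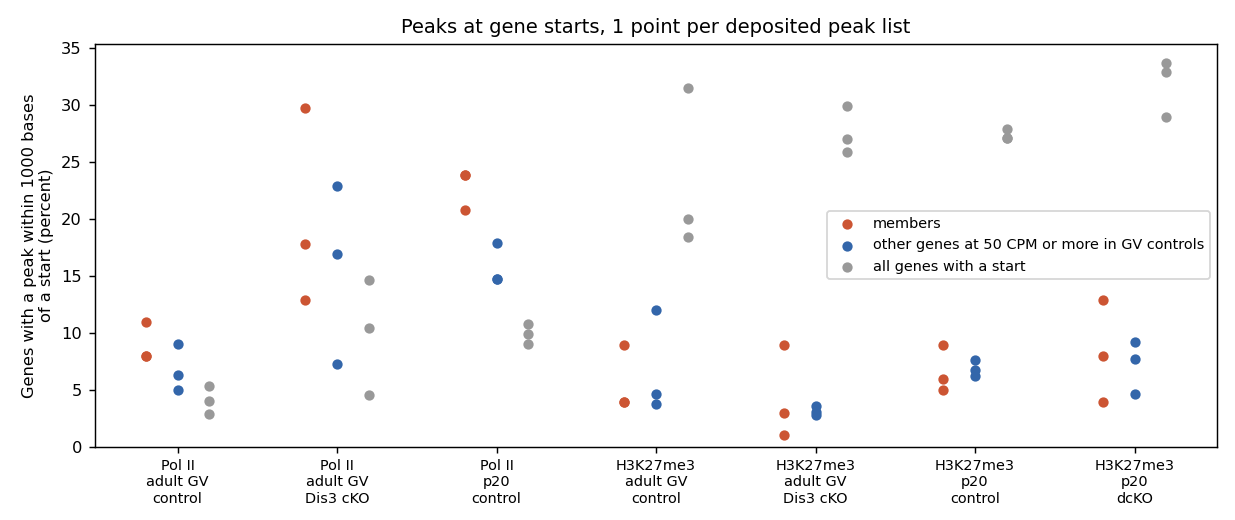
Percentage of gene starts with a called peak within 1000 bases, 1 point per deposited peak list, for the 101 matched member genes (orange), the other genes at 50 CPM or more in control GV oocytes (blue) and all genes with a start (grey). H3K27me3 lies at 0.99% to 12.9% of member starts, at 2.77% to 12% of the other eligible and at 18.4% to 33.7% of all starts.

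At the Mt1 start a Pol II peak was called in 3 of 3 adult dis3cKO lists, in 0 of 3 adult control lists and in 0 of 3 p20 control lists. At the Zp3 start it was called in 3 of 3 adult dis3cKO, 1 of 3 adult control and 0 of 3 p20 control lists. At the Gja4 start it was called in 0 of 3 adult dis3cKO, 1 of 3 adult control and 1 of 3 p20 control lists. Khdc3, Ooep and Mlycd had no such peak in the adult lists of either genotype, and Khdc3 had one in 1 of 3 p20 control lists. Their promoters and that of Khdc3 are shown as the genes whose level differed most between the groups or that build the egg; each is 250 bases of the plus strand before the transcript start that the RefSeq promoter table uses, on GRCm38.p6, the patch release of mm10. For Mt1 and Khdc3 the RefSeq gene begins further upstream, at 94178883 and 73101381, so the window lies mostly (Mt1) or wholly (Khdc3) within the annotated gene. Capitals mark matches to TGCACNC or TGCGCNC, the core letters of metal response elements, in Mt1 (chr8:94178839-94179088), and to the E-box CANNTG in Zp3 (chr5:135979855-135980104) and Khdc3 (chr9:73102148-73102397), searched on both strands.
Mt1: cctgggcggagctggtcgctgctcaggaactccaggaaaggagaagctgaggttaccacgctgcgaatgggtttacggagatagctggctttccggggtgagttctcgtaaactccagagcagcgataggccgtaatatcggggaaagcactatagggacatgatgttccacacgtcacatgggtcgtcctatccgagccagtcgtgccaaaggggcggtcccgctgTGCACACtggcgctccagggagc
Zp3: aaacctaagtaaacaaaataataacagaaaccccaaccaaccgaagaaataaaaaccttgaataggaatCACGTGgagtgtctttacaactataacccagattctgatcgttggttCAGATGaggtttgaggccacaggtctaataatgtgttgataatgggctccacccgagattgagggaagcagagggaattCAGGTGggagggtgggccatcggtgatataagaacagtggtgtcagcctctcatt
Khdc3: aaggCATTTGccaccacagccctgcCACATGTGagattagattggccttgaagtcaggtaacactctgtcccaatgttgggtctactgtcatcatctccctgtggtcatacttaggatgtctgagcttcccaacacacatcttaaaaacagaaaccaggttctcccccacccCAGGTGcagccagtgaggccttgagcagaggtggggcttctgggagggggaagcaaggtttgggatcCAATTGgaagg
The window of Mt1 held 1 match, that of Zp3 3 and that of Khdc3 5, of which a pair overlaps. Of the 122 member promoters in the table, which can list several per gene, 23.8% held the metal response letters, against 30.7% of eligible and 21.4% of all 32851 promoters of the same length. An E-box was in 60.7% of member promoters, 56.4% of eligible and 66.2% of all. The GC box GGGCGG was in 62.3% of member promoters, 59.2% of eligible and 32.7% of all. CCGGAA, the ETS core, was in 22.1%, 24.7% and 12%, and TATAA in 14.8%, 12.2% and 22.8%. Median GC content was 59.2% for members, 60.4% for the other eligible genes and 52.4% for all. A match is a description of letters and not of a bound site.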

How the data were processed

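Single-oocyte poly(A) libraries with ERCC spike-ins (71), RiboMinus libraries (48) and CUT&Tag peak lists (21) were used. The authors deposited raw counts per gene for each library; the submitters' processing notes name cutadapt 2.5, STAR 2.7.2a, SAMtools 1.9, HTSeq 0.9.1, DESeq2 1.24.0 and SEACR, with mm10. The signal of each peak was deposited by the authors, and here only peak positions were used. Whether counting used strand is not given in the sources used here.

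Counts were fitted with edgeR 4.0.16 in R 4.3.3 (TMM scaling, filterByExpr, quasi-likelihood test, Benjamini-Hochberg adjustment over all genes tested, threshold 0.05): 1 fit over the 6 poly(A) groups, and 1 each over the adult, the p20 and all RiboMinus groups. ERCC scaling, DESeq2 1.42.0, no filter, left-out libraries, single-pair fits, sums per title tag and replicate blocks were alternatives. Data were simulated on the 3 h comparison with the same spread for every gene and equal mean shares in all groups. Only a subset of the 17389 genes was changed, and the fit recovered 96% of their 2-fold and 100% of their 4-fold changes. The simulation did not carry the spread of the real libraries, so these shares do not give the recovery behind the counts reported. Same-numbered libraries did not deviate together. Members and gene lists were chosen with earlier results of these data known. Named were the 10 members with the lowest ratios, the genes at the rule's edge and members of the symbol lists. Also named were the 3 or 4 largest called changes in each direction in main comparisons and the 3 least depleted in knockout eggs. Others named in the text were chosen after their values were seen. Figures were drawn with matplotlib 3.10.9.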

Additional observations from a re-analysis of the deposited data

Results flagged for a closer look

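In groups of 4 to 10 libraries the gap of the most extreme library was set against the range of its group. The values used were the summed level and 18 genes shown above, which include the knocked-out Dis3 and Exosc10. Of 174 groups tested, 19 held a library that stood apart, where chance gives about 1 in 20. The summed level was 12352 CPM in p20 dcKO library 1_2. Mt1 stood apart in control GV library 1 (0.102 CPM) and control MII egg 3 (1.44 CPM). Gm26917 did so in control 3 h library 6 (52.6 CPM) and control MII egg 3 (14.6 CPM). Control MII egg 8 was high for Khdc3 (190 CPM) and Dppa5a (38 CPM). Control GV library 1 was low for Exosc10 (48.1 CPM) and Hspa8 (51.3 CPM). H2afx stood apart in control GV library 4 (109 CPM) and control MII egg 6 (15 CPM), and Zp3 in control 3 h library 5 (1391 CPM).

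In RiboMinus data, Ccnd2 was high in 1 adult dis3cKO library (26.2 CPM), 1 p20 dis3cKO library (36.3 CPM) and 1 p20 exo10cKO library (83.7 CPM). The summed granulosa and cumulus markers were at 194, 177 and 235 CPM in these 3 libraries, where their groups had medians of 134, 185 and 178 CPM and the adult dis3cKO and the exo10cKO library were the highest of their groups; the part of these markers was not tested. Ooep stood apart in the same adult dis3cKO library (553 CPM). Arid5b was high in p20 dcKO library 1_2 (2561 CPM), Arl2 stood apart in p20 dcKO library 1_1 (32.4 CPM) and Dis3 in p20 dis3cKO library 1_4 (4.15 CPM). By the test of the difference itself, the Dis3 effect was called as differing between 3 h and GV for 3 messages and between the ages for 12. The first contains the control GV libraries that chose the members and is a description only; edgeR called 0 with libraries summed over 4 title numbers, with 8 at an unadjusted p under 0.05. The second became 1 with sums per title tag.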

How the results depend on the processing

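For the 45 fold changes picked by the naming rule, 408 alternative values were computed. None had the opposite direction where it or the reported value passed the threshold. Of these values, 21 missed the threshold that the reported value passed, and 6 passed one that it missed. A change of sign between values that both missed it was not counted. The main counts of called messages are those of the report, and the cause of the shifts below was not tested. With only the compared groups in the fit, the counts were 44 (3 h against GV, control), 77 (the same, dis3cKO), 51 (knockout against control at GV), 70 (at 3 h), 55 (at MII) and 64 (adult against p20). ERCC scaling gave 47 (3 h against GV, dis3cKO), 36 (GV), 77 (RiboMinus adult), 4 (p20 Exosc10), 41 (dcKO), 138 (adult against p20) and 4 (adult against p20 difference of effects). Without dis3cKO MII egg 15, counts were 4 (control 3 h against GV), 40 (dis3cKO 3 h against GV) and 29 (GV); the 2 settings that left out 1 library, control GV library 1 or that egg, gave 18 and 29 at GV; without eggs 7 and 11, added after seeing the data, they were 4, 43 and 31. Without control GV libraries 2 and 3, also added, the control 3 h count was 1 and the difference of effects 1. Summing libraries over 4 title numbers, also added, gave 0, 4, 11, 13 and 65 for control 3 h, dis3cKO 3 h, GV, 3 h and MII, and 0 for the difference of effects; the 2 zeros came from edgeR, with 8 and 8 messages at an unadjusted p under 0.05. Title numbers 1 to 8 gave 6 and 1. Sums per title tag gave 0 (adult), 3 (p20 Dis3), 2 (p20 Exosc10), 43 (dcKO), 5 (adult against p20) and 1 (difference of effects).

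A replicate block on the title number changed no count by over 1.5 times (24 for dis3cKO 3 h, 26 at 3 h, 85 at MII); same-numbered libraries shared only a number, with median correlations of their deviations between -0.006 and 0.0564. The share of member starts with a Pol II peak averaged 8.91% in adult controls, 6.93% within 500 and 13.9% within 2000 bases; in p20 it was 22.8%, 16.2% and 33%, and in adult dis3cKO 33.7% within 2000 bases. Dropping the prefixes before taking the 200 lowest gave 200 members, 144 shared; a GV minimum of 20 or 100 CPM gave 138 and 156, with 96 and 78 shared. Counts at MII limit the lowest messages, where control levels of Ccnd2 and Mt1 rest on few reads.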
